A study of Arabidopsis thaliana with 9 samples.

Results

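The comparison described here sets a TINY overexpression line of Arabidopsis thaliana, TINYOE, directly against the tiny124 mutant line, so that the highest and the lowest intended TINY dose in the study meet without wild type (WT) in the contrast. It uses 6 of the 9 libraries of the series, all of those labelled TINYOE (n = 3) and tiny124 (n = 3), and every gene with enough counts to test. TINYOE has the genotype label BES1P::TINYOE, a notation that writes a promoter, here BES1P, before the gene it drives. The mutant has the genotype label tiny1tiny2tiny4, and the labels do not tie the third name to a locus. WT (n = 3) is shown beside the lines as a level only. All plants were 4 weeks old, had 16 h of light and 8 h of darkness a day, and were sampled as whole rosettes. The labels do not say how many plants or independent transformants stand behind a library, so the p-values rest on the spread among 3 libraries a line, part or all of which may be technical.

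TINY is an AP2/ERF transcription factor of the DREB group, whose members bind DNA through a single AP2 domain. Brassinosteroids are growth-promoting steroid hormones perceived by the receptor kinase BRI1; the kinase BIN2 restrains, and hormone perception frees, the transcription factors BES1 and BZR1. Growth and drought tolerance are often traded against each other in this pathway, and the series title names both. In rosette leaves, salicylate and jasmonate are the main defence hormones, and their outputs commonly move in opposite directions.

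Messenger RNA was counted by QuantSeq, which sequences the 3' ends of polyadenylated RNA, so counts need no correction for transcript length. Totals were 5500292 to 5794432 counts in the TINYOE libraries and 5217176 to 6070778 in the tiny124 libraries. The first principal component of these 6 libraries held 55.5% of the variance and separated the lines, at -41.3 to -29.4 for TINYOE and 27.7 to 45.6 for tiny124. Of 10 listed root genes, PLT1, PLT2, WOX5, RHD6, COBL9, EXPA7 and PRP3 had 1 to 8 counts each over the 6 libraries, whereas SHR had 558, SCR 267 and CASP1 73. Levels are given as CPM (counts scaled to library size). Summed over the inflorescence and flower list, they overlapped, at 131 to 206 CPM in TINYOE and 158 to 196 CPM in tiny124, but SOC1 and SPL3, which are not floral organ genes, gave 2880 and 802 of the list's counts. The floral organ genes AP1, AP3, PI, AG, SEP1, SEP2 and SEP3 had log2 fold changes of 0.58 to 1.55, of which SEP2 was called, and their part in other results was not tested. In bulk rosettes, fewer cells of a type and less RNA per cell cannot be told apart.

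Of 16059 genes tested, 1243 were higher and 1167 lower in TINYOE than in tiny124, at an adjusted p under 0.05 by edgeR's quasi-likelihood test. These calls are 15% of the genes tested, 7.74% higher and 7.27% lower. At least 2-fold differences were found in 576 higher genes (3.59%) and 505 lower genes (3.14%), and at least 4-fold ones in 98 and 91. The lines did not overlap in 4963 genes (30.9%), called or not. The median log2 fold change of all genes tested was 0.01. Against this background, a list of genes is described below by its counts and its median. Where 0 genes of a list were called in a direction, DESeq2 also called 0 in that direction, and an unadjusted p under 0.05 gave at most 2. Every adjusted p below is from the same edgeR test with Benjamini-Hochberg adjustment over all genes tested, and values after ± are SD for levels (n = 3) and standard errors for log2 fold changes.

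**Figure D1:**
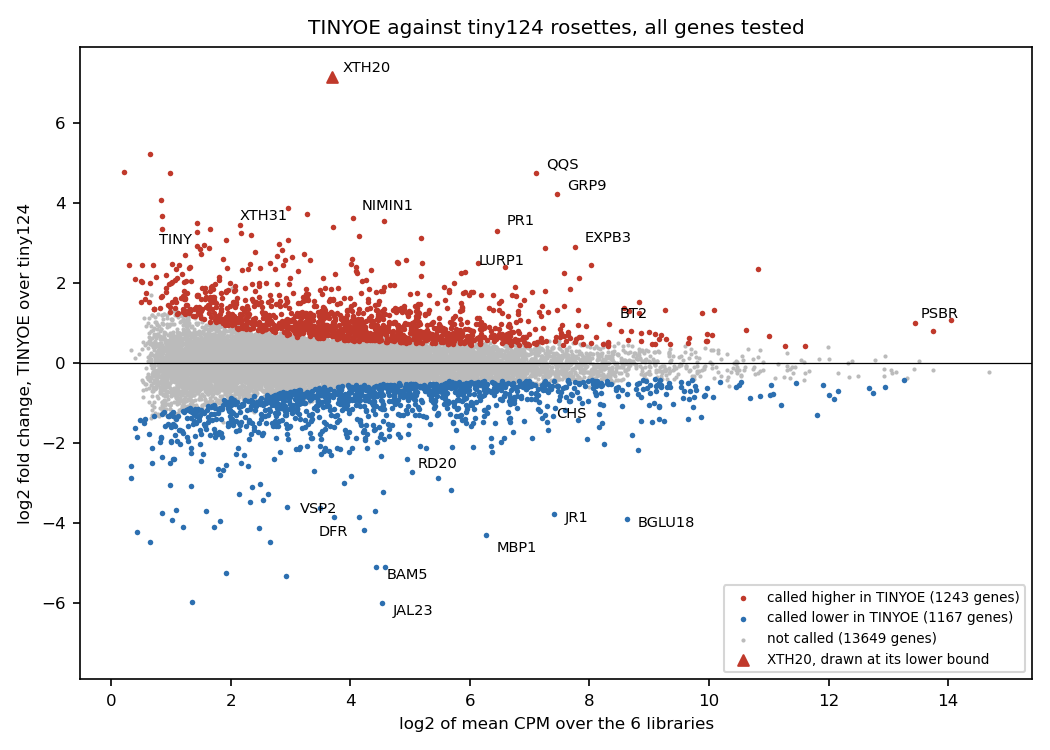
Each point is a gene among the 16059 tested, with its mean level over the 6 libraries (log2 of CPM, horizontal) and its log2 fold change of TINYOE over tiny124 (vertical). Red and blue mark genes called higher and lower in TINYOE, which numbered 1243 and 1167 among all genes tested. Any gene with 0 counts over a whole line was left out, except XTH20. QQS, GRP9, NIMIN1 and PR1 stand out above and JAL23, BAM5, MBP1 and BGLU18 below; XTH20, with 0 counts in tiny124, is drawn at its lower bound.

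TINY (AT5G25810) itself had 5.51, 6.25 and 4.70 CPM in TINYOE, 0.575, 0.843 and 0.741 CPM in tiny124, and 3.89, 3.87 and 4.63 CPM in WT. All TINYOE libraries were above all tiny124 libraries, a log2 fold change of 2.88 ± 0.39 (adjusted p = 2.43e-05). WT lay between the lines but nearer TINYOE, with its highest library (4.63 CPM) just under the lowest TINYOE library (4.70 CPM). Tags at the 3' end need not see a lesion elsewhere in the gene, nor a transgene that ends differently, so these counts check the labels only in part. TINY2 (AT5G11590) had 2, 1 and 0 counts in TINYOE, 1, 0 and 0 in tiny124, and 5, 7 and 11 in WT. These counts were too few to test. Of 15 genes listed in the TINY subfamily, 5 were tested. AT4G32800 was higher in TINYOE (1.38 ± 0.34, adjusted p = 0.0085), at 4.43 ± 0.52 CPM against 1.71 ± 0.382 CPM in tiny124, and WT, at 7.74 to 15.0 CPM, was above both lines. AT4G16750 was lower (-1.40 ± 0.34, adjusted p = 0.00822). AT2G44940 (-0.98 ± 0.37, adjusted p = 0.0823) and AT1G01250 (-0.61 ± 0.25, adjusted p = 0.113) did not pass. In the related CBF and DREB2 list, CBF2 and DREB2A were tested and neither was called, at log2 fold changes of -0.03 ± 0.41 and 0.01 ± 0.41. DESeq2, and an unadjusted p under 0.05, also gave 0 of these 2 genes.

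Of tested brassinosteroid genes, 9.09% were called in synthesis, 0% in inactivation and 5.88% in signalling, against 15% of all genes tested. These lists are small, and their difference from that share was not tested. Of 11 tested synthesis genes, 1 was lower and 0 were higher, with a list median of -0.12. DWF1 (AT3G19820), which acts early in sterol and brassinosteroid synthesis, had 563, 568 and 609.5 CPM in TINYOE and 838, 826 and 1166 CPM in tiny124. It was lower in every TINYOE library, by a log2 fold change of -0.70 ± 0.15 (adjusted p = 0.0031). The rate-limiting hydroxylase DWF4 was at -0.57 ± 0.23 (adjusted p = 0.104) and CPD, the next P450 of the pathway, at -0.12 ± 0.17 (adjusted p = 0.686). None of 5 inactivation genes was called. At an unadjusted p under 0.05 there were 2 higher and 1 lower of them, and DESeq2 called 0. Their median was 0.49, and UGT73C5, a glucosyltransferase, was at 0.90 ± 0.38 (adjusted p = 0.12).

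Among 17 tested genes of brassinosteroid signalling, 1 was called, with a list median of 0.10. The receptor BRI1 was at 0.10 ± 0.19, the kinase BIN2 at 0.03 ± 0.18, BZR1 at 0.03 ± 0.19 and BES1 at 0.14 ± 0.15, all with overlapping libraries. BEH4 (AT1G78700), a homologue of BES1, was higher at 14.5 ± 1.4 CPM in TINYOE against 6.24 ± 0.701 CPM in tiny124 (1.21 ± 0.21, adjusted p = 0.000493). It lies in a run of genes at the end of chromosome 1 that were higher in TINYOE together, described further on. Of 8 growth-related bHLH factors, BEE1, which brassinosteroids induce early, was the 1 called. BEE1 was lower at 4.31 ± 0.605 CPM in TINYOE against 9.38 ± 0.701 CPM in tiny124 (-1.11 ± 0.24, adjusted p = 0.00327), with WT between the lines. HBI1, PRE1, PRE6, BEE2, BEE3, PAR1 and IBH1 did not pass.

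Genes of cell wall loosening split in both directions. Xyloglucan endotransglucosylase/hydrolases (XTH) cut and rejoin xyloglucan, and expansins loosen the wall as cells grow. Of 35 tested members, 10 were higher and 11 lower in TINYOE, of which 9 and 9 were called in all 13 alternative analyses that tested them. The list median was 0.22, also with XTH20 at its bound. XTH20 (AT5G48070) had 26.7, 29.6 and 21.6 CPM in TINYOE and 0 counts in every tiny124 and WT library, at least 143-fold higher than tiny124, counting 3 counts over the mutant line as the floor. EXPB3 (AT4G28250), a beta-expansin, had 436, 399.5 and 305 CPM in TINYOE and 65.2, 36.7 and 50.0 CPM in tiny124. The lines were far apart (2.91 ± 0.20, adjusted p = 5.5e-09), and WT, at 47.1 to 77.8 CPM, lay with tiny124. XTH31 was higher by 3.74 ± 0.37 (adjusted p = 6.11e-07), and the alpha-expansins EXPA8 (1.77 ± 0.18, adjusted p = 1.07e-06) and EXPA1 (1.43 ± 0.16, adjusted p = 2.74e-06) rose as well.

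Other members of these families fell in TINYOE. EXLB1 (AT4G17030), an expansin-like gene, stood at 0.978 ± 0.253 CPM in TINYOE against 10.7 ± 2.6 CPM in tiny124 (-3.42 ± 0.34, adjusted p = 7.16e-07). EXLA1 fell by 1.84 on the log2 scale, and XTH24 by 0.99. Smaller decreases were found in XTH7 and XTH4: XTH7 stood at 159 ± 19.7 CPM in TINYOE against 293 ± 41.6 CPM in tiny124, and XTH4 at 135 ± 20.3 CPM against 219.7 ± 21.6 CPM. The touch-induced XTH22 (TCH4) did not pass (-0.25 ± 0.17, adjusted p = 0.371), and both lines, at 62.8 to 87.2 CPM in TINYOE and 73.5 to 98.6 CPM in tiny124, were above WT at 9.52 to 25.4 CPM.

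**Figure D2:**
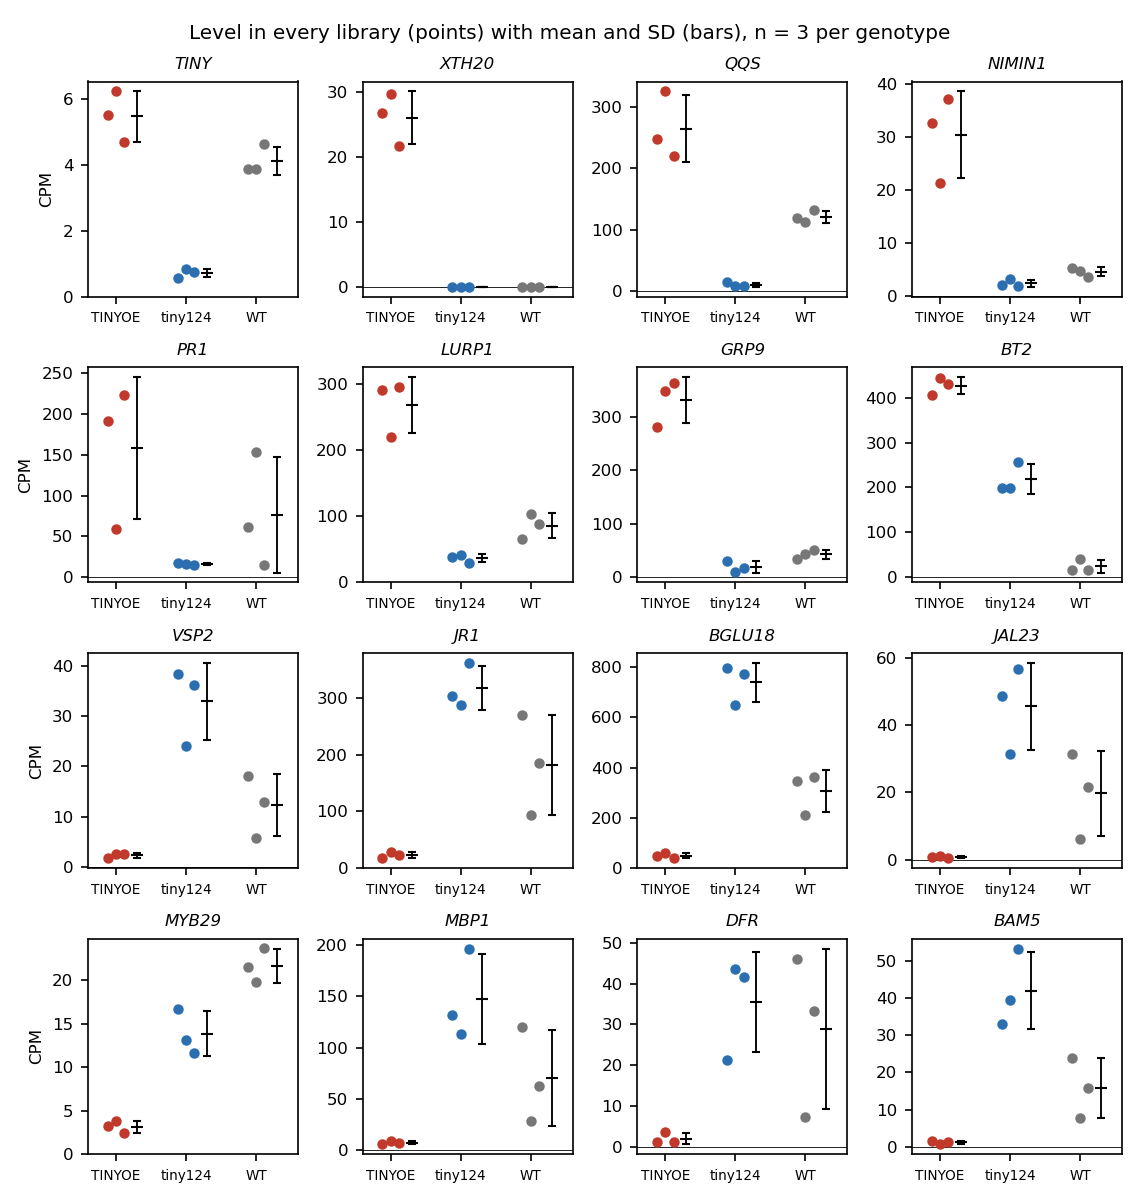
Levels of 16 genes in every library (points, CPM, linear axes) with mean and SD (bars) for TINYOE, tiny124 and WT (n = 3 each). TINYOE and tiny124 do not overlap in any panel; WT lies between them for TINY, QQS, LURP1, VSP2 and BGLU18 among others, with tiny124 for XTH20, and outside both for BT2 and MYB29.

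Most tested genes of the salicylate list, which covers synthesis, perception and output, were called higher in TINYOE. Of 24 tested, 19 were higher and 0 lower, and 18 were called higher in all 13 alternatives that tested them; the median was 1.72. PR1 (AT2G14610), the classical marker of salicylate-dependent immunity, had 192, 59.4 and 224 CPM in TINYOE and 16.9, 16.7 and 14.6 CPM in tiny124. The TINYOE libraries varied widely but all lay above tiny124 (3.3 ± 0.33, adjusted p = 7.49e-07), while WT spread from 14.6 to 154 CPM and overlapped both lines. NIMIN1 (AT1G02450), whose product binds the salicylate receptor NPR1, had 32.7, 21.4 and 37.2 CPM in TINYOE, 2.11, 3.20 and 2.04 CPM in tiny124, and 3.71 to 5.44 CPM in WT (3.61 ± 0.27, adjusted p = 2.13e-08). Its paralogue NIMIN2 was higher by 2.57 ± 0.25.

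Genes called higher were found in both synthesis and output, whereas the receptors NPR1 and NPR3 were not called. ICS1, which makes isochorismate, the main precursor of salicylate, was at 60.7 ± 16.4 CPM in TINYOE against 33.1 ± 3.49 CPM in tiny124 (0.88 ± 0.19, adjusted p = 0.00352). Its activators SARD1 (1.79 ± 0.22, adjusted p = 1.03e-05) and CBP60G (0.98 ± 0.19, adjusted p = 0.00109) were higher. The immune regulators PAD4 and EDS1, lipase-like partners, were higher by 1.70 ± 0.21 and 1.21 ± 0.18. ALD1, which acts in pipecolate synthesis, was higher by 4.07 ± 0.64 at low levels, 2.14 to 4.84 CPM in TINYOE and 0 to 0.37 CPM in tiny124, and by 3.48 without tiny124 replicate 2 and 4.93 without tiny124 replicate 3.

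The receptors themselves did not pass: NPR1 was at 0.45 ± 0.16 (adjusted p = 0.07) and NPR3 at 0.41 ± 0.17 (adjusted p = 0.104). Among outputs, LURP1 (AT2G14560), required for resistance to downy mildew, had 290.2, 219.6 and 295 CPM in TINYOE, 38.0, 42.0 and 29.8 CPM in tiny124, and 65.5, 103 and 88.6 CPM in WT (2.87 ± 0.18, adjusted p = 1.31e-09). WT lay between the lines. PR2 and PR5 were higher than in tiny124 by 1.44 ± 0.23 and 1.77 ± 0.26, and WT, at 107 to 276 CPM for PR2 and 49.3 to 172 CPM for PR5, overlapped TINYOE for both. WRKY70, a factor that favours salicylate over jasmonate responses, stood at 319 ± 102 CPM in TINYOE against 87.8 ± 25.2 CPM in tiny124 (1.86 ± 0.22). DMR6, a hydroxylase that inactivates salicylate, was also higher (1.74 ± 0.16), with WT at 64.3 to 95.5 CPM overlapping TINYOE at 85.1 to 95.7 CPM.

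GRXS13 and PNP-A, outside the salicylate list, were among the largest increases. GRXS13, a glutaredoxin, had 83.8, 52.8 and 57.8 CPM in TINYOE and 7.48, 7.25 and 7.59 CPM in tiny124 (3.12 ± 0.21, adjusted p = 5.38e-09). PNP-A, a secreted natriuretic peptide, was higher by 3.18 ± 0.30 (adjusted p = 3.86e-07). The remaining genes of largest increase were GRP9, a glycine-rich protein gene, EXL7, an EXORDIUM-like gene (2.83 ± 0.32), and LHT7, named as an amino acid transporter (2.71 ± 0.30). GRP9 (AT2G05440) had 283, 349 and 365 CPM in TINYOE, 29.3, 8.42 and 16.3 CPM in tiny124 and 32.8, 41.9 and 50.6 CPM in WT (4.21 ± 0.28, adjusted p = 4.98e-09).

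Jasmonate genes were lower in TINYOE from synthesis to output. Of 14 tested synthesis genes, 10 were lower and 0 higher, with a median of -1.13, and 8 were called lower in all 13 alternatives that tested them. AOS (AT5G42650), which commits oxygenated fatty acids to jasmonate synthesis, had 79.1, 59.2 and 89.3 CPM in TINYOE and 263, 269 and 191 CPM in tiny124. The lines did not overlap (-1.67 ± 0.18, adjusted p = 1.82e-06). LOX2 (-0.95 ± 0.18), LOX3 (-1.53 ± 0.25), AOC2 (-1.48 ± 0.15) and OPR3 (-1.31 ± 0.20), which act before and after AOS, fell with it. AOC1 and AOC2 are near-identical copies, and reads may have been split between them. JAR1, which makes the active isoleucine conjugate, did not pass (0.28 ± 0.17).

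Of 12 tested genes of jasmonate perception and signalling, 6 were lower and 0 higher, with a median of -0.57, and 5 of the 6 were called in every alternative that tested them. The master regulator MYC2 (AT1G32640) had 26.4, 13.9 and 23.1 CPM in TINYOE and 68.1, 47.5 and 44.8 CPM in tiny124 (-1.33 ± 0.22, adjusted p = 0.000223), with WT between the lines at 28.0 to 42.8 CPM. JAZ repressors, which jasmonate signalling induces as feedback, fell in part: JAZ5 by 2.66 (by 3.48 without TINYOE replicate 2), JAZ10 by 1.52, JAZ1 by 1.16 and JAZ9 by 0.90 on the log2 scale. JAZ2, JAZ3, JAZ6, JAZ12 and the receptor COI1 did not pass.

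Of 8 tested outputs, 6 were lower and 1 higher, and their median of -2.97 was the lowest of the 32 lists. VSP2 (AT5G24770), a vegetative storage protein gene of the MYC2 branch, had 1.67, 2.50 and 2.61 CPM in TINYOE, 38.3, 24.1 and 36.3 CPM in tiny124, and 18.1, 5.81 and 13.0 CPM in WT. WT lay between the lines (-3.85 ± 0.26, adjusted p = 5.38e-09). JR1 (AT3G16470), a jasmonate-responsive lectin gene, stood at 23.3 ± 4.92 CPM in TINYOE against 317 ± 39.0 CPM in tiny124, with WT between them at 92.7 to 269 CPM (-3.77 ± 0.18, adjusted p = 3.75e-11). In the branch shared with ethylene, the factor ORA59 (-1.89 ± 0.24) and the defensin PDF1.2 (-2.71 ± 0.29) fell too, and there WT overlapped tiny124. The near copies PDF1.2b (-3.71 ± 0.48) and PDF1.2c (-4.48 ± 0.43) and the pair VSP1 and VSP2 may share reads. TAT3, a tyrosine aminotransferase gene, was the 1 output that was higher (1.36 ± 0.30, adjusted p = 0.00353), and PR4 was at -0.02 ± 0.16.

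ER bodies are endoplasmic reticulum compartments that store beta-glucosidases for use when tissue is damaged, and jacalin-related lectins (JAL) assemble with those enzymes. Of 9 tested genes, 7 were lower and 0 higher, with a median of -1.54, and 6 of the 7 were called in every alternative that tested them. JAL23 (AT2G39330) had 0.668, 1.07 and 0.348 CPM in TINYOE, 48.7, 31.3 and 56.7 CPM in tiny124, and 31.3, 6.24 and 21.5 CPM in WT. It showed the largest decrease of the genes named by rule (-5.99 ± 0.34, adjusted p = 2.98e-10). BGLU18 (AT1G52400), a beta-glucosidase of wound-induced ER bodies that also frees abscisic acid from its glucose ester, had 48.4, 59.2 and 41.9 CPM in TINYOE, 796, 650.4 and 772 CPM in tiny124, and 349, 211 and 361 CPM in WT. WT stood between the lines in all libraries (-3.89 ± 0.17, adjusted p = 2.27e-11). PYK10, the main beta-glucosidase of constitutive ER bodies, fell by 1.54 on the log2 scale. There WT, at 8.60 to 19.8 CPM, overlapped TINYOE at 8.35 to 25.2 CPM and not tiny124 at 39.3 to 52.2 CPM. The thionin gene THI2.1 was also among the largest decreases (-3.84 ± 0.59, adjusted p = 0.000121). DESeq2 did not call THI2.1 (adjusted p = 0.114, the highest of its 13 alternatives, the lowest being 1.89e-40), and its log2 fold change was -6.99 without TINYOE replicate 2 and -3.24 without TINYOE replicate 1.

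Aliphatic glucosinolates, sulfur-rich defence compounds made from methionine, had lower transcripts along the route in TINYOE. Of 21 tested genes, 17 were lower and 0 higher, with a median of -1.31, and 14 were called lower in all 13 alternatives that tested them. MYB29 (AT5G07690), a regulator of the route, stood at 3.12 ± 0.657 CPM in TINYOE against 13.8 ± 2.58 CPM in tiny124 and at 19.8 to 23.7 CPM in WT. TINYOE was lower than tiny124 (-2.14 ± 0.26, adjusted p = 6.7e-06), and WT was above both. Chain elongation was represented by BCAT4, at 142 ± 35.8 CPM in TINYOE against 432 ± 45.3 CPM in tiny124 (-1.60 ± 0.18). The core P450 enzymes CYP79F1 (-2.11 ± 0.18) and CYP83A1 (-1.43 ± 0.17), the sulfotransferase SOT17 (-1.18 ± 0.17) and the side-chain oxygenase FMOGS-OX1 (-2.31 ± 0.23) fell. SUR1, which also serves the indolic route, was at -0.20 ± 0.19 (adjusted p = 0.563).

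In the indolic route, 3 of 12 tested genes were higher and 3 lower, and 1 in each direction was called in all alternatives that tested it. Their median was -0.46, with 8 of 12 below 0, and 3 were higher and 7 lower at an unadjusted p under 0.05. The difference between the routes was not tested. CYP83B1, the P450 that commits to indolic glucosinolates, was higher at 126 to 164 CPM in TINYOE against 67.4 to 103 CPM in tiny124 (0.79 ± 0.17, adjusted p = 0.00339). CYP81F4, which oxidises the indole ring, was lower at 0.167 to 0.696 CPM in TINYOE against 5.22 to 9.26 CPM in tiny124 (-3.96 ± 0.47, adjusted p = 5.93e-06). Without TINYOE replicate 3, CYP81F4 was at -4.56.

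Myrosinases break glucosinolates down, and binding and specifier proteins steer the products. Of 8 tested genes of this system, 6 were lower and 0 higher, each in all 13 alternatives that tested it, with a median of -1.53. MBP1 (AT1G52040), a myrosinase-binding protein gene, had 6.18, 9.10 and 6.96 CPM in TINYOE and 132, 113 and 196 CPM in tiny124 (-4.31 ± 0.23, adjusted p = 1.9e-10). MBP2, a close copy, was lower too, and reads may have been split between them. The myrosinases TGG2 (-1.74 ± 0.15) and TGG1 (-0.72 ± 0.14) and the specifier proteins ESP (-2.31 ± 0.21) and NSP1 (-1.32 ± 0.16) fell. ESM1 and NSP5 did not pass.

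Flavonoid and anthocyanin genes were in part lower in TINYOE. Of 16 tested genes, 8 were lower and 0 higher, all 8 in every alternative that tested them, with a median of -0.79. DFR (AT5G42800), the first enzyme of the late branch, had 1.17, 3.57 and 1.22 CPM in TINYOE and 21.3, 43.6 and 41.7 CPM in tiny124 (-4.16 ± 0.34, adjusted p = 7.36e-08). The log2 fold change of DFR was -4.87 without TINYOE replicate 2. WT spread from 7.31 to 46.0 CPM and overlapped tiny124. LDOX, the next enzyme (-3.61 ± 0.33), the anthocyanin carrier GSTF12 (-3.27 ± 0.37) and the MYB activator PAP1 (-3.92 ± 0.61, and -5.14 without TINYOE replicate 3) fell as well. CHS, the entry enzyme, was at 101 ± 11.8 CPM in TINYOE against 213 ± 27.2 CPM in tiny124 (-1.07 ± 0.16, adjusted p = 6.5e-05). The flavonol branch was split: the glycosyltransferase UGT78D1 fell by 0.83, and FLS1 was at -0.14 ± 0.20. Of 14 phenylpropanoid and lignin genes upstream, 3 were lower and 0 higher, with a median of -0.31, and no call among them held in every alternative.

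Genes of the dehydration response, which the series title concerns, were called in both directions in these rosettes, for which the labels name no drought treatment. Of 25 tested effectors, 3 were higher and 8 lower, with a median of -0.18, of which 1 and 6 were called in every alternative that tested them. RD20 (AT2G33380), a caleosin gene induced by dehydration, had 10.7, 8.92 and 9.74 CPM in TINYOE, 54.5, 56.1 and 45.4 CPM in tiny124, and 31.7 to 47.4 CPM in WT (-2.41 ± 0.18, adjusted p = 2.55e-08). ANAC019, a NAC factor that acts in both abscisic acid and jasmonate responses, fell by 2.56, GOLS1, a galactinol synthase gene, by 1.67, KIN2 by 0.91, RD26, a NAC factor, by 0.79 and RD22 by 0.73 on the log2 scale. For RD26, TINYOE (32.7 to 51.5 CPM) and tiny124 (74.0 to 76.2 CPM) were both above WT (26.5 to 32.4 CPM).

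LTI30 (AT3G50970), a dehydrin gene, went the other way, with 103, 98.7 and 77.1 CPM in TINYOE and 28.8, 22.9 and 30.4 CPM in tiny124 (1.77 ± 0.18, adjusted p = 7.4e-07). RD29A was at -0.18 ± 0.17 (adjusted p = 0.532), with overlapping libraries. RD29B, at 3.39 to 5.18 CPM in TINYOE and 0 to 1.73 CPM in tiny124, was called higher (2.70 ± 0.59, adjusted p = 0.00323) but not by DESeq2 (adjusted p = 0.147, against 6.53e-07 in the alternative with the lowest). Its log2 fold change was 5.22 without tiny124 replicate 1 and 2.08 without tiny124 replicate 2. Of 17 genes of abscisic acid metabolism and signalling, 3 were higher and 2 lower, with a median of 0.25. CYP707A3, which breaks the hormone down, fell at 2.09 ± 0.824 CPM in TINYOE against 5.99 ± 1.59 CPM in tiny124 (-1.51 ± 0.34, adjusted p = 0.00451), and the other 4 calls were each lost in at least 1 alternative. NCED3, the rate-limiting synthesis gene, was at 0.85 ± 0.31 (adjusted p = 0.0747).

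Of 20 tested genes of calcium, touch and early stress, 4 were higher and 2 lower, with a median of -0.10, of which 4 and 1 were called in every alternative that tested them. The calmodulin-like gene CML38 (AT1G76650) had 52.4, 56.9 and 55.3 CPM in TINYOE, 169.7, 121 and 147 CPM in tiny124, and 25.6, 28.8 and 36.3 CPM in WT. TINYOE was lower than tiny124 (-1.41 ± 0.16, adjusted p = 3.75e-06) although both were above WT. CML37 (1.66 ± 0.33), CML41 (1.36 ± 0.22), AT3G01830 (1.55 ± 0.22) and the membrane-associated defence repressor BAP1 (1.82 ± 0.26) were higher. TCH3 was at -0.02 ± 0.14. Among 4 tested heat shock genes, HSP18.2 was lower (-1.71 ± 0.33, adjusted p = 0.00127) and the others did not pass.

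Genes tied to sugar, starvation and nitrate included large differences in both directions. Of 29 tested, 9 were higher and 3 lower, with a median of 0.27, of which 8 and 3 were called in every alternative that tested them. QQS (AT3G30720), an Arabidopsis-specific gene that influences starch content, had 248, 326 and 220.5 CPM in TINYOE, 13.8, 8.42 and 7.41 CPM in tiny124, and 118, 112 and 131 CPM in WT. WT lay between the lines without overlap (4.75 ± 0.23, adjusted p = 3.47e-11). BAM5 (AT4G15210), a beta-amylase gene, went the other way, with 1.5, 0.714 and 1.39 CPM in TINYOE, 33.0, 39.6 and 53.3 CPM in tiny124, and 7.74 to 23.9 CPM in WT (-5.09 ± 0.29, adjusted p = 3.22e-10).

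Several genes that respond to darkness, carbon shortage or nitrate were higher in both lines than in WT and highest in TINYOE. BT2 (AT3G48360), a scaffold protein gene controlled by sugar and nitrate, had 407, 444 and 429.8 CPM in TINYOE, 199, 199 and 257 CPM in tiny124, and 17.3, 41.5 and 16.1 CPM in WT (0.97 ± 0.15, adjusted p = 0.000113). SEN1, a dark-induced gene, had 191, 246 and 203 CPM in TINYOE, 86.5, 65.5 and 88.3 CPM in tiny124 and 17.8 to 31.8 CPM in WT (1.41 ± 0.16, adjusted p = 4.37e-06). BT1 (0.93 ± 0.18), the factor bZIP1 (0.76 ± 0.15) and DRM2 (0.82 ± 0.16) gave the same order of levels, and BT4, BT5, ASN1 and TPS11 did not pass, with overlapping lines.

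Growth hormone lists beyond brassinosteroids held calls in both directions. Of 29 tested auxin genes, 9 were higher and 3 lower, with a median of 0.34, of which 4 and 3 were called in every alternative that tested them. SAUR22 (AT5G18050), of a family of short-lived growth proteins, was higher at 40.1 ± 9.30 CPM in TINYOE against 10.3 ± 1.41 CPM in tiny124 (1.95 ± 0.21, adjusted p = 1.64e-06). The SAUR19 to SAUR24 genes are close copies and may share reads. IAA17, an auxin response repressor, was lower at 44.6 ± 8.73 CPM in TINYOE against 126 ± 18.0 CPM in tiny124 (adjusted p = 4.49e-06), and GH3.5, which conjugates auxin and salicylate to amino acids, was higher (1.07 ± 0.22).

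Of 14 tested gibberellin genes, 1 was higher and 5 lower, with a median of -0.07, of which 1 and 3 were called in every alternative that tested them. RGL1, a DELLA repressor, was lower at 4.40 ± 0.694 CPM in TINYOE against 16.2 ± 1.48 CPM in tiny124 (-1.88 ± 0.22, adjusted p = 6.68e-06), whereas the DELLA genes RGA and GAI did not pass. Among gibberellin-regulated peptide genes, GASA1 (-1.45 ± 0.15) and GASA14 (-1.49 ± 0.17) fell and GASA6 rose (1.49 ± 0.17, adjusted p = 2.85e-06). Of 18 ethylene genes, 1 was higher and 4 lower, with a median of -0.27, of which 0 and 2 were called by DESeq2 and in every alternative. EFE, which encodes an ethylene-forming oxidase, fell (-1.12 ± 0.18, adjusted p = 0.000151) and was called lower in all 13 alternatives. ACO1 was called lower as well (-1.58 ± 0.38, adjusted p = 0.00718), but its lines overlapped and its call was lost with DESeq2 (adjusted p = 0.125) and with all 9 libraries in 1 fit (adjusted p = 0.0685), the highest of its alternatives, which went down to 6.47e-10. RTE1, the 1 called higher (0.61 ± 0.20, adjusted p = 0.0465), and EBF1, called lower (-0.56 ± 0.18, adjusted p = 0.0409), each lost their call in 7 alternatives.

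Photosynthesis genes, the most abundant in these libraries, were more often called lower than higher in TINYOE. Of 57 tested, 1 was higher and 15 lower, with a median of -0.17, and 7 of the 15 were called in every alternative that tested them. Their summed level was 163790 to 175362 CPM in TINYOE and 184477 to 189580 CPM in tiny124, and the lines did not overlap, with WT at 189244 to 211594 CPM. RBCS3B, a Rubisco small subunit gene with close copies, stood at 2989.7 ± 330.4 CPM in TINYOE against 5246 ± 654 CPM in tiny124 (-0.81 ± 0.14, adjusted p = 0.00047). PSAG and PSAH2, photosystem subunits, fell by 0.62 and 0.78 on the log2 scale, and PRK, of the Calvin cycle, by 0.57. PSBR (AT1G79040) was the 1 that was higher, with 17413, 17782 and 17356 CPM in TINYOE and 10056, 10643 and 9219.6 CPM in tiny124 (0.81 ± 0.13, adjusted p = 0.000158). It lies in the run at the end of chromosome 1.

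Transcripts of the plastid genome were lower as well. They took 3.88% ± 0.178 of counts in TINYOE and 5.24% ± 0.225 in tiny124, and the lines did not overlap. An exact two-sided permutation test gave p = 0.1, the smallest p that 3 libraries against 3 allow. Of 81 plastid genes tested, 53 were called lower, with a median of -0.84. Mitochondrial transcripts took 0.141% ± 0.0151 of counts in TINYOE and 0.208% ± 0.0679 in tiny124, with overlap (exact permutation p = 0.3), and 4 of 13 tested genes were lower. The kit primes on poly(A), which organelle transcripts mostly lack, so these shares also depend on priming, whose part was not tested.

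The remaining lists are given with the share called, against 15% of all genes tested. It was 13.6% for clock, 15.4% for senescence and 0% for cell division genes. For iron and phosphate it was 9.09%, for inflorescence and flower 23.1%, and for the 3 tested root genes 33.3%. Of 22 clock genes, 2 were higher and 1 lower, with a median of 0.07, and no call held in every alternative; GRP7 was at 0.03 ± 0.15. Of 13 senescence genes, 2 were higher and 0 lower, with SAG21 at 686 ± 47.6 CPM in TINYOE against 411 ± 15.5 CPM in tiny124 (0.74 ± 0.14, adjusted p = 0.000759), and ORE1 at 0.00 ± 0.21. ORS1, the other gene called higher (adjusted p = 0.0431), lost its call in 7 alternatives. None of 14 cell division genes was called, 1 was lower at an unadjusted p under 0.05, and DESeq2 called 0; their median was -0.13. Of 11 iron and phosphate genes, 1 was lower, the ferritin gene FER3 (-0.66 ± 0.16). Of 13 tested inflorescence and flower genes, 1 was higher and 2 lower, with a median of 0.59, and at an unadjusted p under 0.05 there were 5 higher and 2 lower. SEP2, a floral organ factor, was at 11.4 ± 2.89 CPM in TINYOE against 3.88 ± 1.10 CPM in tiny124 (1.55 ± 0.28), and SPL3, which promotes the change of phase, was lower at 13.8 ± 3.03 CPM against 34.3 ± 6.21 CPM (-1.31 ± 0.20). SPL5, the other gene called lower (adjusted p = 0.0263), lost its call in 5 alternatives. AP1, AG, PI and AP3 did not pass. Of 3 tested root genes, SCR was called higher (0.74 ± 0.23, adjusted p = 0.038), a call lost in 7 alternatives, where adjusted p reached 0.128.

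**Figure D3:**
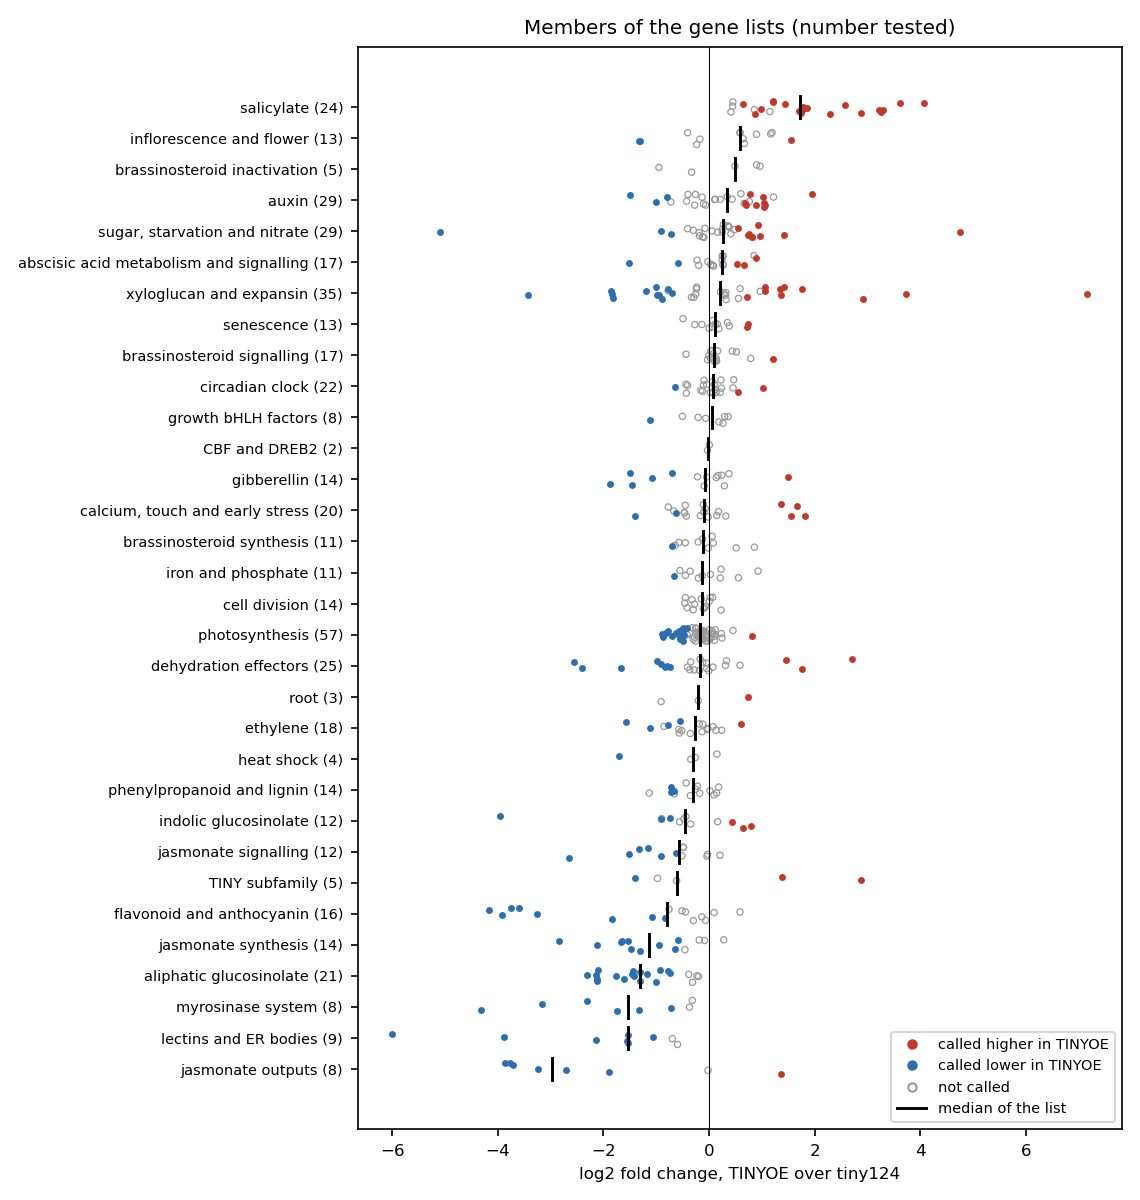
Log2 fold change of TINYOE over tiny124 (horizontal) for every tested member of the 32 lists, 1 list per line with the number tested, ordered by median (black bar); filled points were called and open points were not. The salicylate list lies to the right (median 1.72) and the jasmonate output, ER body, myrosinase and aliphatic glucosinolate lists to the left (medians -2.97, -1.54, -1.53 and -1.31); XTH20 is drawn at its lower bound.

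Where WT stood differed from gene to gene. Position was scored by overlap of library ranges, so it depends on how widely the WT libraries spread. On the first principal component of all 9 libraries, WT lay at -0.362 to 53.3. TINYOE lay there at -52.3 to -38.4 and tiny124 at 6.43 to 31.5. Of the 1243 genes called higher in TINYOE, WT overlapped tiny124 alone in 729 (58.6%) and TINYOE alone in 114 (9.17%). Of the 1167 called lower, WT overlapped tiny124 alone in 658 (56.4%) and TINYOE alone in 125 (10.7%). Among all 4963 genes whose lines did not overlap, these shares were 46.5% and 10.5%. WT lay wholly between the lines in 87 of the higher genes (7%) and 75 of the lower genes (6.43%), against 3.53% of those 4963. Not all called genes are among the 4963: the lines did not overlap in 1192 of the higher and 1138 of the lower genes. Calling also favours genes with wide gaps between the lines, which leave more room for WT. The shares of called genes and of the 4963 are therefore not like for like. Apart from TINY, the rule for this pattern named QQS, GRP9, NIMIN1, PNP-A and LURP1 among higher genes, and JAL23, BAM5, BGLU18, VSP2 and JR1 among lower genes.

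In a further group, WT lay outside both lines. It was below both in 98 (7.88%) of the genes called higher and above both in 4 (0.322%). Among genes called lower it was above both in 53 (4.54%) and below both in 20 (1.71%). Among all 4963 genes whose lines did not overlap, WT was below both in 4.9% and above both in 3.55%, so the 4.54% is near the general share. SIS, a serine-rich protein gene induced by salt, had 20.7 to 30.7 CPM in TINYOE, 6.71 to 9.44 CPM in tiny124 and 1.94 to 4.09 CPM in WT (1.63 ± 0.22, adjusted p = 3.03e-05). RMA2, a ubiquitin ligase gene (1.43 ± 0.29), and SEN1 shared that order. SOFL1 (-1.44 ± 0.25, adjusted p = 0.000344) and NAS1, a nicotianamine synthase gene (-1.31 ± 0.22, adjusted p = 0.000259), had the reverse order, with WT highest and TINYOE lowest, as MYB29 did. CYP706A2 (-1.25 ± 0.27, adjusted p = 0.00274) was highest in tiny124 and lowest in WT.

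One stretch of the genome contributed many of the higher calls. The last 191 tested genes of chromosome 1, from AT1G78410 to AT1G80970, had a median log2 fold change of 0.94, and 186 of them were above 0. Of these, 144 were called higher, which is 11.6% of all genes called higher. In the 100 tested genes just before, the median was 0.03, with 12 higher and 6 lower. Windows of 50 neighbouring tested genes elsewhere in the genome had medians from -0.22 to 0.23 and at most 10 genes called higher. The limits of the stretch were drawn with these values known, so no test is attached to it.

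In that stretch the median log2 ratio was 0.91 for TINYOE over WT and -0.02 for tiny124 over WT. BEH4, PSBR, the DnaJ-type chaperone gene J8 and the DNA repair gene ATXRCC1 lie in it. J8 (AT1G80920) had 779, 889 and 973 CPM in TINYOE, 340.2, 439 and 283 CPM in tiny124 and 98.7 to 248 CPM in WT. ATXRCC1 was at 85.5 ± 13.3 CPM in TINYOE against 30.0 ± 1.57 CPM in tiny124 (1.51 ± 0.17, adjusted p = 2.65e-06). Some genes inside the stretch did not follow it, among them WRKY40 at -0.07 and Hsp70-15 at -0.14. With the stretch left out, genes higher in TINYOE than tiny124 numbered 1101 and genes lower in TINYOE than tiny124 numbered 1106.

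**Figure D4:**
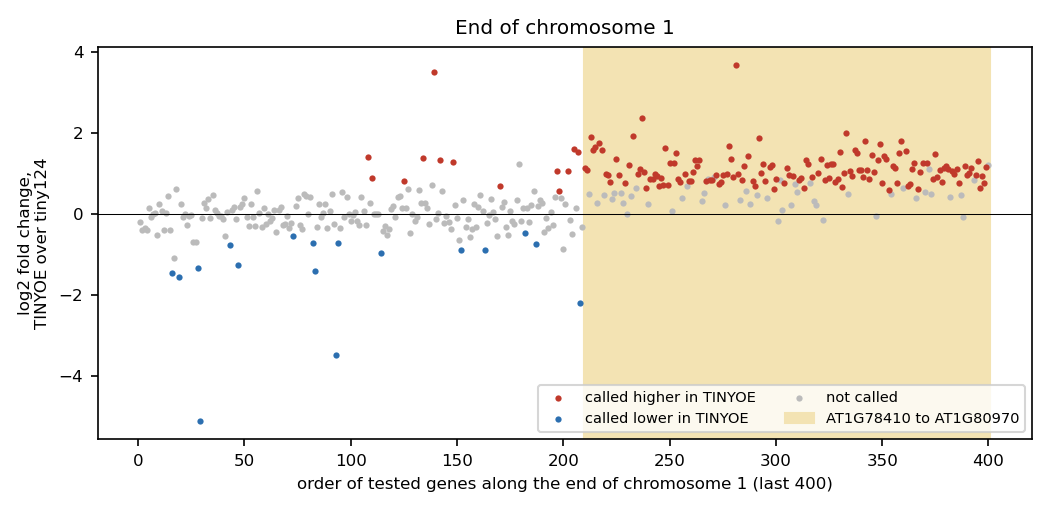
Log2 fold change of TINYOE over tiny124 (vertical) for the last 400 tested genes of chromosome 1 in gene order (horizontal). From AT1G78410 on (shaded, 191 genes) nearly all points lie above 0, with a median of 0.94; before it they scatter around 0.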

How the data were processed

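The 6 libraries compared, and the 3 WT libraries shown as levels, were grouped by their labels. The deposited table holds raw counts of reads per gene. Per the labels, reads of 50 nt from about 500 ng of RNA were processed against TAIR10 in Lexogen's QuantSeq FWD pipeline on BlueBee (2.2.2). Which aligner and annotation it used is not given in the sources used here. Deposited DESeq2 tables were not used.

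Of 32833 genes, edgeR's filterByExpr kept 16059, and the others held 0.363% of counts. Genes were tested in R 4.3.3 by edgeR 4.0.16 (with limma 3.58.1): TMM scaling, then a quasi-likelihood F test on genotype alone, leaving 4 residual degrees of freedom, with Benjamini-Hochberg adjustment over all genes tested and a threshold of 0.05. The common biological coefficient of variation was 0.151. Standard errors are the log2 fold change divided by the square root of F. The same steps were tested on simulated data. Libraries held 4917868 to 6070778 counts, which limits the precision of genes near 1 CPM. Organelle shares carry counting error that is small beside the spread between libraries. Replicates of a line differed by more than sampling noise.

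Gene names and order came from a TAIR10.1 annotation, which held 32548 of the locus IDs; it is another release, so no coordinates are given. The members, the 32 lists (612 loci, 510 tested), the stretch of chromosome 1 and the families in the closing section were chosen with earlier results of these data known. Named genes were the tested TINY subfamily, the 12 higher and 12 lower genes of largest change with a symbol, at least 5 CPM and no overlap, in each list at most 4 called members (1 uncalled where none was), and up to 5 genes a direction with WT between or outside the lines. Other genes named are list members. Alternatives were DESeq2 1.42.0, its size factors in edgeR, no filter, at least 5 CPM in at least 3 libraries, all 9 libraries in 1 fit, the replicate number as a block, the fit without the chromosome 1 stretch, and leaving out each library in turn, 13 in all.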

Additional observations from a re-analysis of the deposited data

How the results depend on the processing

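Across the 13 alternatives, 89 of the 108 called genes among the 114 named by rule kept their call in every one that tested them. Called genes named only as members of a list or family are not in this count. The count of genes higher in TINYOE than tiny124 was 1243 and ran from 862 to 1141 with a library left out; it was 1038 with DESeq2 and 841 with all 9 libraries in 1 fit. The count of genes lower in TINYOE than tiny124 was 1167, ran from 796 to 1114 with a library left out, and was 970 with DESeq2 and 777 with all 9 libraries in 1 fit, where WT enters the estimate of spread; the cause was not tested. Of the fits that left out a library, the one without tiny124 replicate 3 gave the lowest count in both directions. The counts of genes at least 2-fold higher in TINYOE than tiny124 and of genes at least 2-fold lower in TINYOE than tiny124 ran from 495 to 634 and from 432 to 558 with a library left out. The plastid-encoded share of counts differed by -1.45 to -1.24 percentage points, and the mitochondrion-encoded share of counts by -0.104 to -0.0372, with a library left out. The DREB2A (AT5G05410) log2 fold change, 0.01 with an adjusted p of 0.994, ran from -0.31 to 0.42 with a library left out and changed sign without TINYOE replicate 2 (-0.07), without tiny124 replicate 2 (-0.01) and without tiny124 replicate 3 (-0.31). With the filter of 5 CPM, the CBF and DREB2 and the brassinosteroid inactivation lists had no gene left. Deviations of same-numbered libraries correlated at 0.199, -0.165 and 0.0458. These values showed no consistent pairing by number, but with 3 libraries a line they cannot settle whether the numbers pair the samples. With the replicate block, genes higher in TINYOE than tiny124 were 1250 and genes lower in TINYOE than tiny124 were 1184. Depth limits genes near 1 CPM, where a small difference could not be detected.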

Other observations

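Some further gene families were examined because of how their members looked, so their counts are descriptions, to be read against the 15% of all genes that were called. Aquaporins, the water channels of plant membranes, were mostly lower in TINYOE than in tiny124. Of 12 tested plasma membrane aquaporins, 8 were lower and 1 higher, with a median log2 fold change of -0.80, and 7 of the 8 were called lower in all alternatives that tested them. PIP3 had 196, 204 and 187 CPM in TINYOE, 394, 396 and 422 CPM in tiny124 and 361 to 463 CPM in WT (-1.05 ± 0.14). All 5 tested tonoplast aquaporins were lower, with a median of -1.29, and 4 of the 5 were called lower in every alternative that tested them. GAMMA-TIP had 102, 116 and 96.6 CPM in TINYOE and 418, 339.7 and 424 CPM in tiny124 (-1.91 ± 0.15), and WT, at 303 to 474 CPM, overlapped tiny124. Of 23 arabinogalactan protein genes, whose products are cell surface proteoglycans, 11 were lower and 1 higher, with a median of -0.62. Of the 11, 7 were called lower in every alternative that tested them, and AGP5, the 1 called higher, lost its call with DESeq2. AGP21 was at 155 ± 12.4 CPM in TINYOE against 435 ± 64.4 CPM in tiny124 (-1.49 ± 0.15). Of 13 ketoacyl-CoA synthase genes, which elongate wax precursors, 5 were lower and 0 higher, 2 of the 5 in every alternative, KCS4 (-1.06 ± 0.20) and KCS11 (-0.89 ± 0.19).

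Of 27 tested receptor-like protein genes, 11 were higher and 0 lower, with a median of 0.67, and 7 of the 11 were called in every alternative that tested them. RLP23, a receptor for a microbial peptide, had 122, 95.8 and 126 CPM in TINYOE, 44.3, 45.3 and 43.5 CPM in tiny124, and 80.4 to 112 CPM in WT (1.37 ± 0.16). WT overlapped TINYOE there and not tiny124, as it did for RLP41 (1.95 ± 0.23). Of 25 cysteine-rich receptor-like kinase genes, 9 were higher and 1 lower, with a median of 0.31, and 5 of the 9 were called in every alternative that tested them; CRK6, CRK8, CRK13 and CRK18 each lost their call in at least 2. CRK7 was at 2.36 ± 0.33 and CRK4 at 1.02 ± 0.17. Many of these genes sit in clusters of close copies that may share reads. Of 37 WRKY factor genes, 9 were higher and 0 lower, among them WRKY50 at 27.4 ± 6.28 CPM in TINYOE against 4.9 ± 0.274 CPM in tiny124 (2.48 ± 0.23), and the median of the family was 0.17. Of the 9, 7 were called in every alternative that tested them, whereas WRKY46 lost its call in 7 alternatives and WRKY47 in 4. Of the genes called higher, WRKY38, WRKY46, WRKY54 and WRKY70 also belong to the salicylate list and were counted there. Calls are from edgeR's quasi-likelihood test adjusted over all genes; in the directions with 0 calls, DESeq2 also called 0, and an unadjusted p under 0.05 gave at most 2 genes a family.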
